A study of Mus musculus with 36 samples.

Results

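The 9 genes Acta2, Actg2, Tagln, Cnn1, Myl9, Tpm1, Tpm2, Vcl and Srf encode parts of the smooth muscle type actin cytoskeleton and its transcription factor. They were taken by name from the 55536 genes counted in RNA sequencing of 36 libraries of brown pre-adipocyte lines, and they were chosen by a measured value, the fall of Acta2 from day 0 to day 2 of differentiation in these same libraries, which was among the largest. For these 9 genes the contrast of day 2 with day 0, and that of day 6 with day 0 which shares its control libraries, are therefore descriptions without a test. Other genes, in lists of related function, were tested on these contrasts. Those lists were chosen with earlier results of these data known, so their calls are no separate support for the fall. For the 9 genes the contrast of day 6 with day 2, the genotypes and the clones were tested, although the day 2 libraries of the first of these also entered the fall that led to the choice. All lines came from 2 Rxra-/- clones, numbered 48 and 66, each grown from cells of a clonal wild-type line in which Cas9 had disrupted Rxra. Each clone was reconstituted by retrovirus either with wild-type Rxra (RxraWT) or with Rxra whose phosphorylated serine was replaced by alanine (RxraSA), so every library came from cells without the endogenous receptor and with a viral one. Cells were grown to confluence in medium that already held insulin and triiodothyronine, and the first RNA was taken before induction (day 0). Dexamethasone, isobutylmethylxanthine and indomethacin were then added to this medium for 2 days (day 2). The last RNA was taken after further culture in insulin and triiodothyronine (day 6). Each clone, genotype and day had 3 replicates, which gave 12 libraries per day, 6 per day and genotype and 6 per day and clone. The study asked whether the loss of the phosphorylation site alters gene expression during brown adipogenesis.

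Actin filaments carry force when myosin II slides along them. In smooth muscle cells and in contractile fibroblasts the filaments hold the actins encoded by Acta2 and Actg2, are decorated by tropomyosins (Tpm1, Tpm2), calponin (Cnn1) and transgelin (Tagln), are moved by myosin whose regulatory light chain is encoded by Myl9, and are tied to adhesion sites by vinculin (Vcl). Serum response factor (Srf) binds the CArG box in many of these genes, and its cofactors of the MRTF family are held in the cytoplasm by monomeric actin. Cultured pre-adipocytes are spread cells with stress fibres, and they round up and lose these fibres as they become adipocytes.

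The promoters are shown because Srf itself is among the 9 genes and its box is the sequence they are known to share. RefSeq promoter windows of build GRCm38.p6 were matched by symbol for 7 of the 9 genes, and Actg2 and Tagln had no entry. The 250 bases before each RefSeq start were searched on both strands for the CArG box of 10 bases, in its full form and with at most 1 mismatch. Of 32851 promoter windows of this length, 1.47% held the full form and 18.6% held a form with at most 1 mismatch. Myl9, Vcl and Srf held the full form, Srf at 2 places. Acta2 and Tpm1 held only forms with 1 mismatch, 2 each, and none was found in the windows of Tpm2 and Cnn1. A match is a string of letters and was not measured as a binding site. For the 3 genes with a full box, the window is printed 5′ to 3′ up to the first exon of the gene in GENCODE M21, and capitals mark every box, full or with 1 mismatch.
Myl9, chr2:156775214-156775419, plus strand, full box from 161 to 152 and box with 1 mismatch from 99 to 90 bases before the start: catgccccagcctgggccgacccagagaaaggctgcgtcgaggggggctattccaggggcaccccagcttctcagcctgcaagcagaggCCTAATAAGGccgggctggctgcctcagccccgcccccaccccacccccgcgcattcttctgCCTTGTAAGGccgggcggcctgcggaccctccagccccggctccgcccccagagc
Vcl, chr14:20929148-20929397, plus strand, full box from 227 to 218 bases before the start: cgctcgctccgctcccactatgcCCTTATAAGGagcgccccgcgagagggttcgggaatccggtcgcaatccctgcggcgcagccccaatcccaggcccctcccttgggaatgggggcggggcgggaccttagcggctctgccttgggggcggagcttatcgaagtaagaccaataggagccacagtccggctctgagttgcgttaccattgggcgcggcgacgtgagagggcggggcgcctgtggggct
Srf, chr17:46556176-46556412, minus strand, full boxes from 82 to 73 and from 62 to 53 and box with 1 mismatch from 39 to 30 bases before the start: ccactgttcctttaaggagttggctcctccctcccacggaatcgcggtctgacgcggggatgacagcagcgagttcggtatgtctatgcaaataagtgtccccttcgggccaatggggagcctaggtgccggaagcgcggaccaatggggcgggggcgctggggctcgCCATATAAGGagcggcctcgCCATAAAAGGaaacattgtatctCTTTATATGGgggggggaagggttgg
For Acta2 and Tpm1, each box is printed with 10 bases on either side, since much of these windows lies in exons of the same genes in GENCODE M21.
Acta2, chr19:34255438-34255467, minus strand, box from 84 to 75 bases before the start: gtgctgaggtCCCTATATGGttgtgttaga
Acta2, chr19:34255388-34255417, minus strand, box from 34 to 25 bases before the start: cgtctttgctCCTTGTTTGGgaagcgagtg
Tpm1, chr9:67049415-67049444, minus strand, box from 221 to 212 bases before the start: gctcgggtccCCATATATAGtcatatccac
Tpm1, chr9:67049274-67049303, minus strand, box from 80 to 71 bases before the start: acaagcttttCCAAAAAAGTattggctgtc

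Levels are given as CPM, the counts relative to the library total after scaling by TMM, and between genes as RPKM, the CPM divided by the exon length in kilobases. At day 0 the order by mean RPKM (SD, n = 12) began with Acta2 at 127 ± 46.3, followed by Myl9 at 76.3 ± 21.4, Tpm2 at 62.4 ± 12.3 and Tpm1 at 59.3 ± 12.3. Vcl at 26.4 ± 6.33 and Srf at 12.7 ± 2.28 lay below these. Actg2 at 1.11 ± 1.03, Tagln at 1.04 ± 0.844 and Cnn1 at 0.274 ± 0.0619 RPKM came last. Actg2, Tagln and Cnn1 were thus low in the cells in which Acta2 led the order. The ranges of neighbouring genes overlapped at day 0 everywhere except between Tpm1 and Vcl and between Srf and Actg2.

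By day 2 the order by mean RPKM was different. Vcl at 31.9 ± 5.61 and Tpm2 at 22.6 ± 2.00 now led, and Srf at 7.99 ± 1.66 and Tpm1 at 7.76 ± 1.56 followed with overlapping ranges. Acta2 at 0.606 ± 0.171 RPKM and Myl9 at 0.393 ± 0.186 RPKM now lay next above Cnn1, at 0.213 ± 0.0742 RPKM, and Myl9 was above Cnn1 in 11 of 12 libraries. At day 6 Tpm2 was first at 26.8 ± 3.94 RPKM without overlap with Vcl at 13.0 ± 2.91, and Acta2 at 1.48 ± 0.374 and Myl9 at 1.45 ± 0.461 were level with each other.

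Acta2, the gene of smooth muscle α-actin (chromosome 19, 34241090 to 34255590, minus strand), had 123, 290 and 431 CPM as the lowest, median and highest of the 12 libraries of day 0. At day 2 these values were 0.672, 1.35 and 2.05 CPM, from 12 to 33 counts a library, and at day 6 they were 2.41, 3.13 and 5.05 CPM, from 42 to 91 counts. Every library of days 2 and 6 lay below every library of day 0. The mean of day 2 was 209-fold lower than that of day 0 and the mean of day 6 was 85.8-fold lower, with log2 fold changes of −7.71 (SE 0.232) and −6.43 (SE 0.214). By this log2 fold change Acta2 had the 11th largest fall of the 16723 genes tested at day 2 and the 13th largest at day 6. In these bulk libraries, fewer cells that express a gene and less RNA per cell cannot be told apart.

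Myl9 (chromosome 2, 156775420 to 156781658, plus strand) had the same course. Its lowest, median and highest values were 59.2, 85.9 and 141 CPM at day 0. They were 0, 0.492 and 0.818 CPM at day 2, where the library of RxraWT clone 48 replicate 1 had no count and the others had at most 15. At day 6 they were 0.941, 1.57 and 2.80 CPM, from 18 to 45 counts. As for Acta2, no library of day 2 or day 6 reached the range of day 0. Against day 0 the log2 fold change was −7.56 (SE 0.222) at day 2, the 13th largest fall, and −5.72 (SE 0.193) at day 6, the 43rd largest fall.

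Actg2, the enteric smooth muscle actin (chromosome 6, 83512905 to 83536265, minus strand), was a low gene throughout. It had from 3 to 129 counts a library at day 0, with 0.148, 1.45 and 5.57 CPM as lowest, median and highest value. At day 2 it had from 0 to 5 counts and at day 6 from 0 to 4, and 11 of 12 libraries on each of these days had at most 3 counts. Summed over 12 libraries the counts were 450, 17 and 15 on the 3 days. Actg2 thus passed the filter on low counts through its day 0 libraries, largely those of clone 66, and its fold changes rest on day 0. Actins share much of their sequence, and read pairs that align at more than 1 place were left out by the counting command in the file headers, so that levels of the actins are uncertain.

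Tagln, encoding transgelin (chromosome 9, 45929619 to 45936058, minus strand), had 0.470, 1.37 and 5.42 CPM at day 0, from 10 to 106 counts. It had 0.109, 0.459 and 0.570 CPM at day 2 and 0.209, 0.373 and 0.738 CPM at day 6, from 2 to 12 counts a library. Over all 12 libraries the days overlapped, but within each clone every library of day 2 lay below every library of day 0. At day 6 this was so in clone 48 and not in clone 66. The share of all genes with such a pattern within a clone is not reported here, and the fall from day 0 to day 2 led to the choice of the genes. The log2 fold change was −2.22 both at day 2 (SE 0.257) and at day 6 (SE 0.255) against day 0. Exons of Tagln overlap the antisense genes Gm48529 and Pcsk7 and the counting did not use the strand, so its values are uncertain.

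Cnn1, encoding calponin 1 (chromosome 9, 22099216 to 22109630, plus strand), was close to the limit of counting on every day. Its lowest, median and highest values were 0.500, 0.764 and 0.986 CPM at day 0. They were 0.173, 0.595 and 0.845 CPM at day 2, and 0.590, 0.928 and 1.53 CPM at day 6. No library had more than 27 counts, and the 3 days overlapped. Cnn1 thus did not share the course of Acta2, with log2 fold changes of −0.38 (SE 0.176) at day 2 and 0.29 (SE 0.163) at day 6 against day 0.

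The tropomyosins were high genes with a smaller difference. Tpm1 (chromosome 9, 67022590 to 67049406, minus strand) had 260, 385 and 519 CPM as lowest, median and highest value at day 0, 38.2, 51.1 and 62.2 CPM at day 2, and 30.2, 48.3 and 70.3 CPM at day 6. Its mean was 7.65-fold lower at day 2 and 8.16-fold lower at day 6, with log2 fold changes of −2.95 (SE 0.105) and −3.05 (SE 0.106). Tpm2 (chromosome 4, 43514711 to 43523765, minus strand) had 136, 170 and 248 CPM at day 0, 56.4, 67.3 and 73.4 CPM at day 2, and 57.8, 78.7 and 91.8 CPM at day 6. Its mean was 2.76-fold lower at day 2 and 2.33-fold lower at day 6. For both genes every library of days 2 and 6 lay below every library of day 0. Both tropomyosins therefore kept a level per length above those of Acta2 and Myl9 on the later days. With Acta2 and Myl9 they made up 4 of 9 genes whose day 2 libraries were all below day 0, where 27.7% of all genes tested did not overlap, 14.2% with day 2 below, a contrast by which the genes were chosen.

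Vcl, encoding the adhesion protein vinculin (chromosome 14, 20929398 to 21033676, plus strand), had a course of its own. Its lowest, median and highest values were 105, 224 and 289 CPM at day 0, 184, 263 and 326 CPM at day 2, and 75.2, 103 and 157 CPM at day 6. Days 0 and 2 overlapped, with a log2 fold change of 0.28 (SE 0.133) that was 0.02 when libraries were scaled by their total alone. Day 6 lay below day 2 without overlap. Exons of Vcl overlap those of the antisense gene Ap3m1. Vinculin was also a reference protein on some of the study's immunoblots, which were not analysed here.

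Srf (chromosome 17, 46548329 to 46556175, minus strand) had 27.6, 37.1 and 46.5 CPM as lowest, median and highest value at day 0, 18.0, 21.8 and 33.7 CPM at day 2, and 15.6, 20.6 and 23.9 CPM at day 6. Its log2 fold changes against day 0 were −0.68 (SE 0.104) at day 2, where the libraries overlapped, and −0.86 (SE 0.104) at day 6, where they did not. Srf was thus the fifth gene with all day 6 libraries below day 0, where 23.2% of all genes tested did not overlap, 11% with day 6 below.

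**Figure D1:**
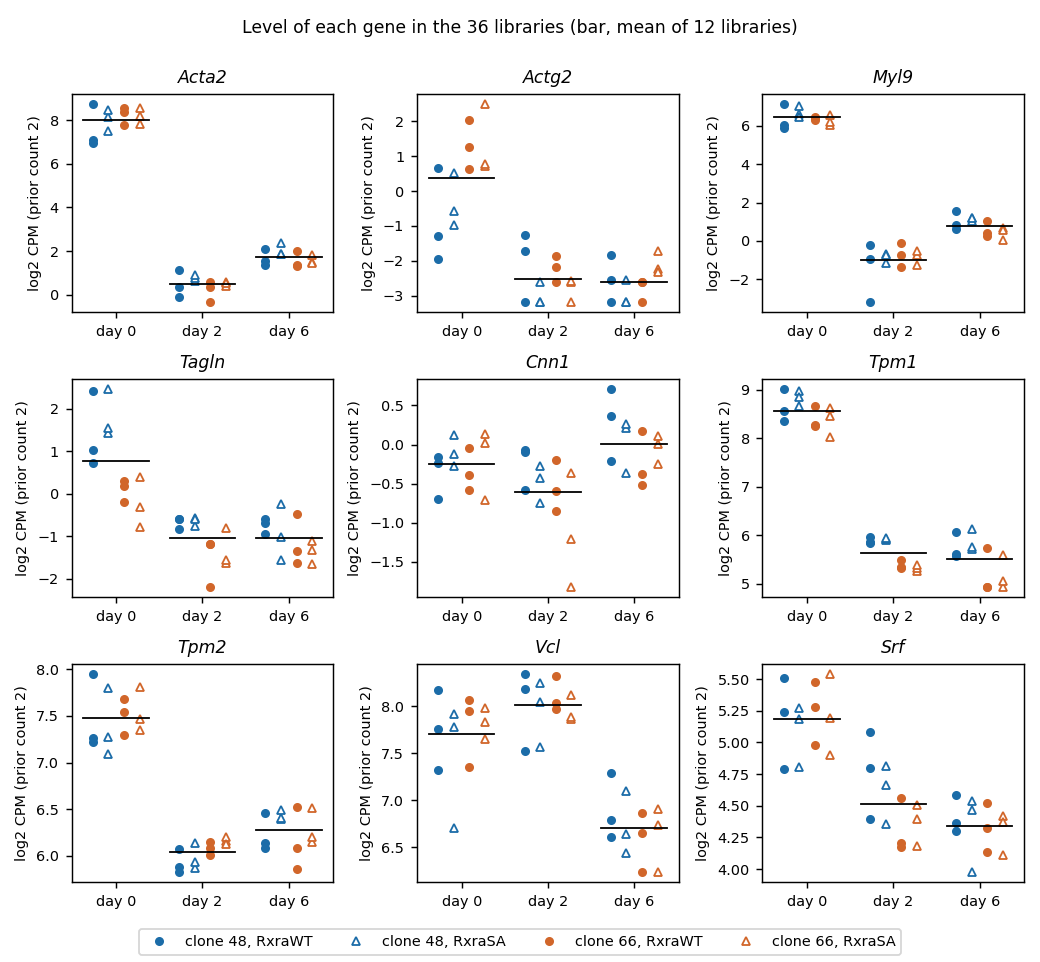
Level of each of the 9 genes in the 36 libraries, as log2 CPM with a prior count of 2, at days 0, 2 and 6. Circles are RxraWT and triangles RxraSA, blue is clone 48 and orange clone 66, and the bar is the mean of 12 libraries. Acta2 and Myl9 at day 2 lie more than any other gene below their day 0 values, Vcl at day 2 overlaps its day 0 range, and the scale of the vertical axis differs between genes.

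From day 2 to day 6, with the genotypes averaged and the clone as a term of the model, 5 of the 9 genes passed the threshold of an adjusted p of 0.05 in edgeR's quasi-likelihood test, 4 of them higher and 1 lower at day 6. Of the 16723 genes tested, 62% passed, 31.9% higher and 30.1% lower, so the number called was near that of all genes. Actg2, counted among the 9, had at most 5 counts a library on these days, too few for a call. Myl9 rose 3.70-fold in mean CPM, with a log2 fold change of 1.83 (SE 0.237, adjusted p = 3.09e-08, n = 12 per day). Acta2 rose 2.44-fold, with a log2 fold change of 1.28 (SE 0.216, adjusted p = 3.96e-06). For both genes every library of day 6 was above every library of day 2, a pattern held by 9.56% of all genes tested, and the day 6 level was still a small part of that of day 0.

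Cnn1 rose with a log2 fold change of 0.67 (SE 0.172, adjusted p = 0.000969), between libraries that overlapped. Tpm2 rose by a small amount, with a log2 fold change of 0.25 (SE 0.0907, adjusted p = 0.0178). This call was lost when the RxraWT day 6 library of clone 66 replicate 1 was left out, which gave 0.20 (adjusted p = 0.0513). Vcl was the one gene that fell. Its mean was 2.45-fold lower at day 6 than at day 2. The log2 fold change was −1.29 (SE 0.135, adjusted p = 3.29e-10) and no overlap of libraries, which 7.56% of all genes showed in this direction. By size this was the 558th largest fall of the genes tested.

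The other 4 genes did not pass. Tpm1 had a log2 fold change of −0.10 (95% interval −0.29 to 0.10, adjusted p = 0.408) and Srf one of −0.18 (−0.38 to 0.03, adjusted p = 0.136). For Tagln the value was 0.00 with a wide interval of −0.66 to 0.67 (adjusted p = 0.998). Tpm1 and Tpm2, which were both lower on the later days than at day 0, thus differed in their call between days 2 and 6, but the difference between the genes was not tested. Actg2 had too few counts on both days for a fold change.

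The rise of Acta2 and Myl9 and the fall of Vcl were found in each clone. The log2 fold change of Acta2 was 1.26 (SE 0.308, adjusted p = 0.00104) in clone 48 and 1.30 (SE 0.312, adjusted p = 0.00089) in clone 66. That of Myl9 was 2.25 (SE 0.348, adjusted p = 3.16e-06) in clone 48 and 1.44 (SE 0.34, adjusted p = 0.00074) in clone 66. Vcl gave −1.18 (SE 0.199, adjusted p = 1.11e-05) and −1.41 (SE 0.2, adjusted p = 7.61e-07) in the same order. In each clone the libraries of days 2 and 6 did not overlap for these 3 genes, where 31.3% of all genes did not overlap in clone 48 and 35% in clone 66. Of all genes, 51.1% were called in clone 48 (26.3% higher, 24.9% lower) and 50.5% in clone 66 (26.9% higher, 23.7% lower).

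The smaller changes were less even within a clone. Cnn1 gave 0.61 (SE 0.243, adjusted p = 0.0365) in clone 48 and 0.73 (SE 0.255, adjusted p = 0.017) in clone 66, and these calls were lost in 7 and 2 of the fits that left out 1 library. Tpm2 gave 0.38 (SE 0.133, adjusted p = 0.0188) in clone 48 and 0.12 (SE 0.133, adjusted p = 0.492) in clone 66. The call in clone 48 was lost when replicate 1 of RxraWT at day 2, of RxraSA at day 2 or of RxraWT at day 6 was left out (adjusted p = 0.0603 to 0.0636). Srf gave −0.32 (SE 0.146, adjusted p = 0.0653) and −0.02 (SE 0.145, adjusted p = 0.907), and with the replicate number as a block the value of clone 48 passed at −0.32 (adjusted p = 0.017). None of the 9 genes differed between the clones in its change from day 2 to day 6, where 6.18% of all genes were called. The largest such differences had wide intervals, such as −1.81 to 0.18 for Myl9.

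**Figure D2:**
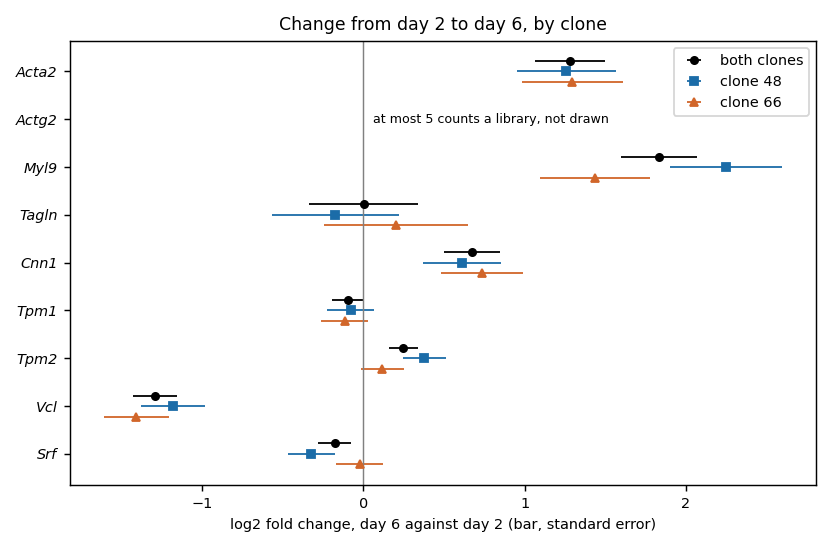
Log2 fold change from day 2 to day 6 with its standard error, for both clones together (black circles), clone 48 (blue squares) and clone 66 (orange triangles). Acta2, Myl9 and Cnn1 lie to the right of 0 and Vcl to the left in both clones, and Actg2 is not drawn because it had at most 5 counts in any library of these days.

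RxraSA and RxraWT were compared on each day to ask whether the phosphorylation site bears on these genes. Rxra, supplied by virus in every line, had from 92.6 to 712 CPM over the 36 libraries, and its log2 fold change of RxraSA against RxraWT was −0.07 (SE 0.156) at day 0, −0.03 (SE 0.155) at day 2 and 0.03 (SE 0.155) at day 6. The counts do not separate viral from endogenous transcripts. None of the 9 genes was called on any day, with an adjusted p of 1 throughout, and none of all genes tested was called (0%). An unadjusted p under 0.05 was found for 139, 162 and 125 of the genes tested at days 0, 2 and 6, and for none of the 9. These counts lie below a share of 0.05 of the 16723 genes tested, so the test was conservative. The fits did not pair libraries of the same replicate number. With that number as a block, the SE of Acta2 at day 0 was 0.186 instead of 0.232, and again no gene was called between the genotypes. The intervals given for the genotypes are those without the block.

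Acta2 had a median of 274 CPM in RxraWT and 290 CPM in RxraSA at day 0, 1.17 and 1.42 CPM at day 2, and 2.64 and 3.47 CPM at day 6, with overlapping ranges on each day. Its log2 fold change was 0.09 (95% interval −0.37 to 0.54), 0.26 (−0.39 to 0.92) and 0.21 (−0.34 to 0.75) on the 3 days. The intervals leave room for differences between the genotypes of this size. At day 0 they were −0.28 to 0.22 for Tpm2 and −0.21 to 0.33 for Tpm1. At day 2 Myl9 gave −0.05 (−0.84 to 0.75), where its counts were few. The change from day 2 to day 6 did not differ between the genotypes for any of the 9 genes either, with −0.06 (−0.90 to 0.79) for Acta2 and 0.05 (−0.48 to 0.57) for Vcl.

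With the 3 days pooled, the clones differed in 3 of the 9 genes. By day the calls among the 9 numbered 2, 1 and 1, beside 23.7%, 30% and 26.2% of all genes tested. The number called was thus near that of all genes before induction and below it on both later days. Clone and library pool coincide, so that a difference between clones and one between pools cannot be told apart. At day 0 Tagln and Actg2 were called, in opposite directions, where 23.7% of all genes tested were called. Tagln had from 1.53 to 5.42 CPM in the 6 libraries of clone 48 (mean 3.25 ± 1.66, SD) and from 0.470 to 1.21 CPM in clone 66 (0.879 ± 0.281), from 31 to 106 and from 10 to 29 counts. The clones did not overlap, as was so for 6.61% of all genes in this direction, and the mean of clone 66 was 3.69-fold lower, with a log2 fold change of −1.88 (SE 0.28, adjusted p = 6.49e-06). At days 2 and 6 the values were −0.90 (SE 0.426, adjusted p = 0.116) and −0.52 (SE 0.413, adjusted p = 0.395), at 2 to 12 counts a library.

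Actg2 was higher in clone 66 at day 0, with 1.43, 1.94 and 5.57 CPM against 0.148, 0.484 and 1.48 CPM in clone 48. In counts this was 30 to 129 against 3 to 29, and in CPM the highest library of clone 48 lay just above the lowest of clone 66. Clone 66 against clone 48 gave a log2 fold change of 1.93 (SE 0.408, adjusted p = 0.000663), and 2.43 with the replicate block. It was 2.68 without RxraWT replicate 3 of clone 48 and 1.47 without RxraSA replicate 3 of clone 66, and it stayed called in both fits. However, Actg2 passed the filter on low counts largely through the clone 66 libraries of day 0, in which it was high. Its call between the clones is therefore a description, and the test adds no support. Acta2, the actin that both clones expressed at a high level, gave 0.28 (95% interval −0.18 to 0.75, adjusted p = 0.436) at day 0.

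Tpm1 was lower in clone 66 at days 2 and 6. At day 2 it had 57.5, 60.1 and 62.2 CPM in clone 48 and 38.2, 40.3 and 44.8 CPM in clone 66, without overlap, as for 9.12% of all genes in this direction. The log2 fold change was −0.55 (SE 0.145, adjusted p = 0.00412), where 30% of all genes were called. At day 6 the values were 47.7, 53.2 and 70.3 CPM against 30.2, 31.9 and 53.3 CPM. The log2 fold change there was −0.59 (SE 0.145, adjusted p = 0.00272), with 26.2% of all genes called. At day 0 the value was −0.35 (SE 0.143, adjusted p = 0.0774), which passed in 5 of the fits that left out 1 library (−0.44 to −0.36). None of the 9 genes differed between the clones in its change from day 0 to day 2, against 6.84% of all genes.

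**Figure D3:**
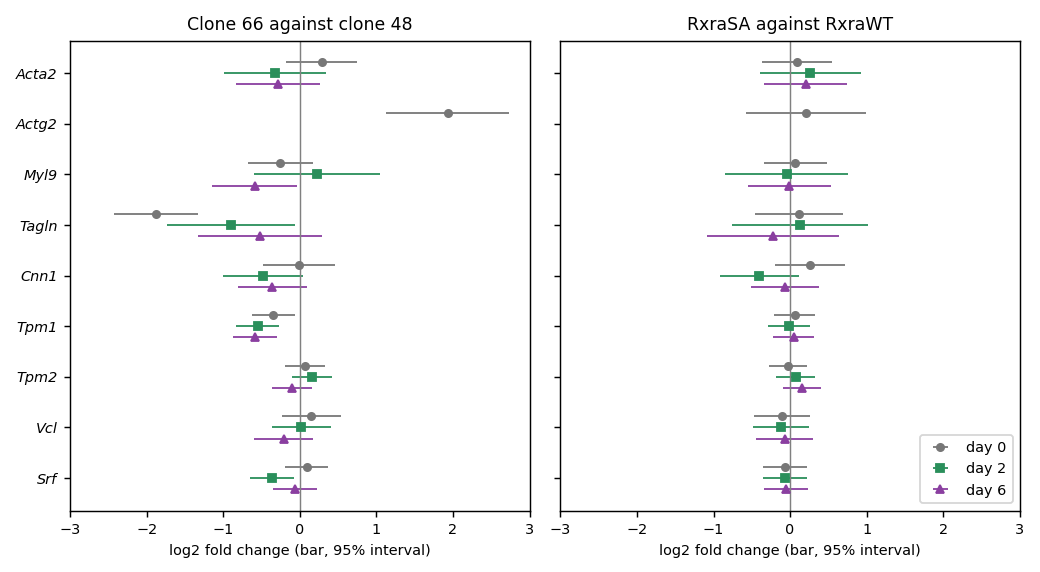
Log2 fold change of clone 66 against clone 48 (left) and of RxraSA against RxraWT (right) at days 0, 2 and 6, with approximate 95% intervals from the standard error. Tagln and Actg2 at day 0 stand apart between the clones in opposite directions, Tpm1 lies left of 0 on each day, and between the genotypes all intervals drawn include 0. Actg2 is drawn at day 0 alone because of its counts.

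Within a set of 3 replicates, several of the 9 genes were highest in the library of the same number in all 4 sets of clone and genotype. Such agreement was not counted over all genes, so it cannot be read as particular to the 9. Over 9726 genes, same-numbered libraries of the 2 genotypes deviated together from their group means, with a mean correlation of 0.700. At day 0 the library numbered 3 was the highest of its set in 4 of 4 sets for Actg2, Tagln, Myl9, Tpm2 and Srf, and in 3 of 4 sets for Acta2. For Cnn1 it was number 2 in 4 of 4 sets. In RxraWT cells of clone 48 at day 0, Acta2 had 135, 123 and 431 CPM in replicates 1, 2 and 3. Vcl was highest in number 3 in 4 of 4 sets at days 2 and 6, and Tpm1 was highest in number 1 in 4 of 4 sets at day 6. Other genes and days were split. Vcl at day 0 was highest in number 1 in 2 sets and in number 3 in 2 sets. Srf at day 6 was highest in number 2 in 2 sets and in number 3 in 2 sets. What the numbers stand for beyond a replicate is not given in the labels.

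From day 0 to day 2 the 3 other actins tested fell less than Acta2, but from day 2 to day 6 Acta1 rose more than any of the 9 genes. Actb and Actg1, the cytoplasmic actins of all cells, fell from day 0 to day 2 with log2 fold changes of −1.22 and −1.48, from mean levels of 3628 and 210 CPM to 1555 and 73.9 CPM. Neither passed the test from day 2 to day 6, with −0.09 and −0.12. Acta1, the skeletal muscle α-actin, went from 2.27 CPM at day 0 to 0.582 CPM at day 2 and 7.93 CPM at day 6, a fall of −1.96 and a rise of 3.77 on the log2 scale, both called. Actc1 and Actbl2 had at most 1 count in any library. Of the 3 other actins tested, 3 fell from day 0 to day 2, where 73.3% of all genes were called and 37.5% fell, and 1 rose from day 2 to day 6, where 62% were called and 31.9% rose.

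Of 13 tested genes of smooth muscle differentiation that are not among the 9, 10 fell and 2 rose from day 0 to day 2, where 73.3% of all genes tested were called, 35.8% higher and 37.5% lower. Their median log2 fold change was −1.78, beside −0.02 for all genes. From day 2 to day 6, 10 rose and 2 fell, with a median of 0.70, where 31.9% of all genes rose and 30.1% fell. Cnn2, encoding the more widely expressed calponin 2, had the largest fall from day 0 to day 2, at −5.24 (SE 0.099) on the log2 scale, from 812 to 21.6 CPM. Myh11, the smooth muscle myosin heavy chain, rose on both steps, from 1.39 to 2.38 and 26.5 CPM, with log2 fold changes of 0.78 and 3.44. This marker thus rose to its highest level at day 6, when Acta2 was 85.8-fold below day 0. Tagln2 had the largest fall from day 2 to day 6, at −0.78 (SE 0.0918).

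Among other tropomyosins, myosin II chains and filament cross-linkers, 11 of 14 tested fell and 2 rose from day 0 to day 2, with a median of −1.05. From day 2 to day 6, 4 rose and 4 fell, with a median of −0.22. Over all genes, 35.8% rose and 37.5% fell on the first step and 31.9% rose and 30.1% fell on the second, so the number called on the second step was near that of all genes. Palld, encoding the stress fibre protein palladin, had the largest fall by day 2, at −2.17 (SE 0.24). Flna, encoding filamin A, fell on both steps and had the largest fall from day 2 to day 6, at −1.22 (SE 0.147), from 427 to 185 CPM. Myh10, a non-muscle myosin heavy chain, had the largest rise from day 0 to day 6, at 1.28 (SE 0.207), and Actn4, an α-actinin, had the largest rise by day 2, at 0.62 (SE 0.248), a call lost with library size alone (0.36, adjusted p = 0.166). Myl12b, another regulatory light chain, had the largest rise from day 2 to day 6, at 0.96 (SE 0.0979). The largest fall of this list from day 0 to day 6 was that of Flna, at −2.78 (SE 0.155).

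Of 20 genes of focal adhesions, where vinculin acts, 16 fell and 4 rose from day 0 to day 2, with a median of −0.86. From day 2 to day 6, 10 rose and 3 fell, with a median of 0.43. The share called over all genes was 73.3% on the first step and 62% on the second, and on the second step the number called was near that share. Vcl, which is not counted among the 20, fell on this second step. Sorbs3, encoding vinexin, a partner of vinculin, had the largest fall by day 2, at −4.32 (SE 0.239), from 25.6 to 1.25 CPM. Tns1, encoding tensin 1, had the largest rise by day 2, at 1.91 (SE 0.18). Lasp1 had the largest rise from day 2 to day 6, at 1.18 (SE 0.169), and Bcar1, encoding an adhesion scaffold, had the largest fall, at −0.76 (SE 0.175).

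The transcriptional arm was described from 12 tested cofactors and partners of SRF and from 10 target genes of YAP and MRTF. Of the cofactors and partners, 7 fell and 2 rose from day 0 to day 2, with a median of −0.85, and 4 rose and 1 fell from day 2 to day 6, with a median of 0.15. With 73.3% and 62% of all genes called, the number called was near that of all genes on the first step and below it on the second. Mrtfa fell by day 2, at −0.78, from 13.9 to 8.12 CPM. Mrtfb gave 0.16 by day 2, which did not pass, and had the largest fall from day 2 to day 6, at −0.50 (SE 0.105). Myocd, the cofactor of smooth and cardiac muscle, had at most 10 counts in any library and was not tested. Fhl2, a LIM protein that binds SRF, had the largest fall by day 2, at −4.47 (SE 0.157), from 116 to 5.20 CPM. Csrp2 had the largest rise by day 2, at 0.56 (SE 0.143), a call lost with library size alone (0.29, adjusted p = 0.0686), and Csrp1 the largest from day 2 to day 6, at 1.65 (SE 0.0821).

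Of the 10 targets of YAP and MRTF, 9 fell from day 0 to day 2, with a median over the list of −2.82, where 37.5% of all genes fell, and all 10 were called lower at day 6 than at day 0, where 68.3% of all genes were called, 35.4% lower. From day 2 to day 6, 7 rose and 3 fell, beside 31.9% and 30.1% of all genes. Ankrd1, an ankyrin repeat protein, had the largest fall by day 2, at −6.90 (SE 0.238), from 160 to 1.43 CPM. Thbs1, encoding thrombospondin, had the largest rise from day 2 to day 6, at 2.84 (SE 0.341), from 9.57 to 81.3 CPM, and remained below its 809 CPM of day 0.

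**Figure D4:**
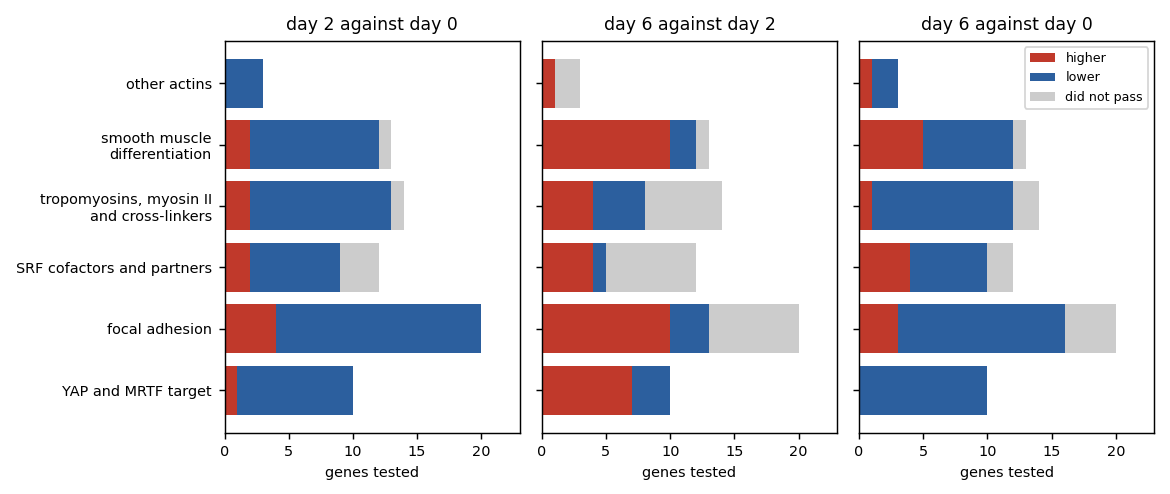
Number of tested genes of 6 lists called higher (red), lower (blue) or not called (grey) at an adjusted p under 0.05, for each pair of days. Most genes of each list are lower at day 2 than at day 0, and from day 2 to day 6 most called genes are higher in the smooth muscle differentiation, focal adhesion and YAP and MRTF target lists.

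Markers of cell types moved with the days. The summed level of 12 brown adipocyte markers was 109 to 256 CPM at day 0, 2817 to 5302 CPM at day 2 and 5483 to 9641 CPM at day 6, without overlap, while Ucp1 itself had at most 5 counts in any library. The 11 pre-adipocyte and fibroblast markers summed to 350 to 927, 57.7 to 138 and 62.4 to 310 CPM on the same days, and Dlk1 and Dpp4 had at most 1 count. From day 0 to day 2 the brown adipocyte sum rose while Acta2 fell, and the pre-adipocyte and fibroblast sum fell as Acta2 did. The latter sum overlapped between days 2 and 6, where Acta2 did not, but its median was 86.1 CPM at day 2 and 143 CPM at day 6. Of the 8 pre-adipocyte and fibroblast markers tested, 5 rose and 2 fell on this step, where 31.9% of all genes rose and 30.1% fell. The part of either sum in the differences between days was not tested. The 8 pericyte markers summed to 32.2 to 49.8, 89.6 to 112 and 138 to 199 CPM, with Kcnj8 and Abcc9 at no more than 1 count and Rgs5 at no more than 22. Of the 4 pericyte markers tested, 1 rose and 3 fell from day 0 to day 2. The higher sum at day 2 was carried by Mcam, named after its values were seen, with mean levels of 8.61, 85.6 and 147 CPM on the 3 days. Of 9 skeletal muscle markers, Myod1, Myf5, Myf6 and Ckm had at most 3 counts in any library, and the sum of 14.7 to 30.8 CPM at day 6 was mostly Des. The 5 endothelial markers summed to at most 1.06 CPM and the 6 immune markers to at most 12.7 CPM.

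The genes most like Acta2 were found by the Pearson correlation of log2 CPM over the 36 libraries, counting only genes whose log2 CPM averaged 3 or more and leaving out the other 8. The libraries share 3 days and 2 clones, so that these values describe a common course between days. They were Cnn2 with 0.990, Fam131b with 0.984, Swap70, Arhgap28, Fgf7 and Glt8d2, each with 0.983. Cnn2 was also the gene with the largest fall in the smooth muscle list. Mean levels of Glt8d2 were 125, 2.79 and 4.87 CPM and those of Fam131b 40.1, 0.704 and 1.27 CPM on the 3 days. Of the 9 genes themselves, Myl9 had 0.983, Tpm2 0.962 and Tpm1 0.961, whereas Vcl had 0.153 and Cnn1 0.123.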

How the data were processed

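RNA was sequenced from 36 libraries of brown pre-adipocyte lines at 3 days. The authors aligned the reads to GRCm38 with STAR 2.7.0d, and the deposited files hold counts of read pairs per GENCODE M21 gene made with featureCounts 1.6.2, without normalization and without use of the strand. Total counts were 11351078 to 24349263 per library (median 18338726), and counting error limits genes of few counts. Clone, genotype, day and replicate number came from the labels. The submitters' description calls the replicates technical and the paper calls them independent, so p-values measure the spread between these libraries. No pair of replicates was a duplicate, with a chi-square per degree of freedom of at least 12.0.

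The filterByExpr function (edgeR 4.0.16, R 4.3.3) kept 16723 genes, all 9 described here among them, and TMM scaled the libraries. The model followed the paper's methods, with every combination of genotype and day as a term beside the clone. Clone contrasts came from a coefficient for each clone, genotype and day. Both were tested over all genes with the quasi-likelihood test in its earlier form and adjusted by the Benjamini-Hochberg method. Standard errors were derived from the F statistic, and 95% intervals from the standard error. RPKM used exon lengths of GENCODE M21. The fits were tested on simulated counts.

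Same-numbered libraries of the 2 genotypes deviated together from their group means, with a correlation above 0.1 in 18 of 18 pairs (0.178 to 0.922 over 9726 genes). This was read as pairing. Between days the correlation was above 0.1 in 8 to 11 of 12 pairs, which was not read as pairing. Mean correlations between days were still 0.320 to 0.477 for the same number, beside −0.225 to −0.155 for different numbers. The genes and lists were chosen with earlier results of these data known. All 9 genes are named. Of each list and pair of days the largest rise and fall among called genes whose log2 CPM averaged 3 or more are named, with the other actins, Mrtfa, Mrtfb, Myocd, Myh11, Rxra and the 6 genes most like Acta2. Some listed genes and 1 list are not reported here. Alternatives were RLE factors, library size alone, no filter, 1 CPM in at least 6 libraries, DESeq2 1.42.0, edgeR's version 4 test, a replicate block, no clone term, clone-specific groups, the compared days alone and each library left out.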

Additional observations from a re-analysis of the deposited data

How the results depend on the processing

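The number of the 9 genes called between days 2 and 6 was 5 under every alternative that kept all libraries, and 4 to 5 when each library was left out. It was 0 for the genotypes on each day, and for their difference in change from day 2 to day 6, under every setting. For the clones' difference in change, from day 0 to 2 or 2 to 6, it was 0 under each setting that fitted it. Between the clones it was 2 at day 0 (2 to 3 with each library left out) and 1 at day 6 (1 to 1). At day 2 it was 1, but 2 with library size alone and 1 to 2 with each library left out. Library size alone added Srf at −0.41 (adjusted p = 0.0196, range over the alternatives that kept all libraries 0.0196 to 0.162). Srf was also added when replicate 1 of either genotype of clone 48 at day 2, RxraSA replicate 1 of clone 48 at day 6 or RxraWT replicate 3 of clone 66 at day 2 was left out (adjusted p = 0.0178 to 0.0489), and Cnn1 when RxraSA replicate 3 of clone 66 at day 2 was left out, at −0.80 (adjusted p = 0.0385). At day 0, Acta2 was added at 0.68 without RxraWT replicate 3 of clone 48 (adjusted p = 0.0118), and Tpm1 without RxraWT or RxraSA replicate 2 of clone 48 or replicate 1 of clone 66 at day 0, or RxraWT replicate 1 of clone 66 at day 6 (adjusted p = 0.0333 to 0.0493). With the replicate block 5 of the 9 genes were called between days 2 and 6, 0 between genotypes and 2, 1 and 1 between clones, and apart from Srf in clone 48 no call of the 9 genes changed. Library size alone moved the median of all genes by −0.26 from day 0 to day 2, giving −3.21 for Tpm1, −1.73 for Tpm2 and −0.94 for Srf, and it reversed Cfl2, a listed cofilin gene, to −0.053. Called listed genes numbered 63, 83 and 81 for days 2 to 6, 0 to 2 and 0 to 6, and 60 to 66, 80 to 83 and 80 to 83 with each library left out. Without a filter, Cnn1 in clone 48 lost its call between days 2 and 6 (adjusted p = 0.0929). With the compared days alone, Actg2 and Tagln had too few counts at days 2 and 6 to be fitted. Depth limits Actg2, Tagln and Cnn1, and Myl9 at day 2.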
